A study of Mus musculus with 10 samples.

Results

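Genes that mark macrophages and monocytes were followed by their GENCODE M21 symbols through all 10 libraries of the series: Lyz2, Chil3, Csf1r, Adgre1, Cd68, C1qa, C1qb, C1qc, Cd14 and Plbd1. They are 10 of the 54337 genes with a matched transcript, of which 22049 had reads in at least 1 library. The members were chosen by name, with 1 library, CA-RIT NFAT1 10, already known to be rich in them, so its high values are given here as a description. Every group consisted of CD8 T cells whose transgenic receptor sees P1A, an antigen of the tumour, activated for 24 h, transduced with a retrovirus, transferred 24 h later into Rag1-/- B10D2 mice with P511 mastocytoma, and sorted from the tumours 7 days after transfer. The retrovirus carried eGFP alone (eGFP control 3, 6 and 7), NFAT5 (NFAT5 1, 5 and 8) or CA-RIT NFAT1 (CA-RIT NFAT1 2, 4, 9 and 10), a constitutively active NFAT1 that cannot pair with the factor AP-1. The age of the mice is not given in the sources used here, and the labels give the strain as C57BL/6. Rag1-deficient hosts lack their own mature T and B cells and keep their macrophages, monocytes and other myeloid cells. Whether each library stands for a mouse of its own is not stated in the labels, and p-values below cover only the spread from library to library.

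Macrophages are tissue phagocytes that arise from embryonic precursors or from blood monocytes, and in tumours they take up dying cells and debris and can shape the response of T cells. Their survival depends on signals through the receptor encoded by Csf1r, and their identity on the transcription factor PU.1, encoded by Spi1, acting with C/EBP factors. A CD8 T cell does not normally transcribe most of these genes at a high level, so in sorted T cells they are commonly read as markers of other cells.

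The libraries were uneven. Between 18.8 and 36.6 M estimated reads were present in 9 of them, and 51112 in eGFP control 7, where 3 reads equal 58.7 CPM (counts-per-million, a gene's reads scaled to all matched reads of the library). The 14 CD8 T cell markers summed to 28534 to 43889 CPM in 8 libraries and to 609 CPM in CA-RIT NFAT1 10, which went against its label as a T cell library. The 14 mast cell and P511 markers summed to 56.6 to 270 CPM in those 8 libraries and to 5130 CPM in CA-RIT NFAT1 10. Nfat5 lay at 48.0 to 87.0 CPM in the NFAT5 libraries and at 0 to 10.7 CPM in the others. Nfatc2, the gene of NFAT1, was at 3.39 CPM in CA-RIT NFAT1 10 and 4.00 CPM in eGFP control 3, against 30.0 to 88.8 CPM in the other deep libraries, and its range in the CA-RIT NFAT1 libraries overlapped that of both other groups. Each result is given over all 10 libraries and over the 8 that remain without eGFP control 7 and CA-RIT NFAT1 10.

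The stretches before the transcription starts of the members are where PU.1, C/EBP and AP-1 factors could bind, and 6 of the 10 members had an entry in the RefSeq promoter table (GRCm38.p6). Lyz1, the near copy of Lyz2, is shown beside it because the reads of the copies can be confused. Each line holds up to 250 bases before the start, cut back where GENCODE M21 places the start further upstream, 5′ to 3′ on the gene's own strand, which is the minus strand for all 7. Capitals mark the PU.1 core GAGGAA, the C/EBP letters TTGCNNAA and the AP-1 letters TGANTCA, searched on both strands.
Cd68 (chr11:69666171-69666420, minus strand, 250 bases): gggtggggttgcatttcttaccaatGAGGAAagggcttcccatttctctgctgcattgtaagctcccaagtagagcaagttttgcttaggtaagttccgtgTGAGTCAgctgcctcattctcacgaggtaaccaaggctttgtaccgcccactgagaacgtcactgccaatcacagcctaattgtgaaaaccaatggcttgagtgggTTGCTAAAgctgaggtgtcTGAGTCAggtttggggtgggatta
C1qb (chr4:136886201-136886450, minus strand, 250 bases): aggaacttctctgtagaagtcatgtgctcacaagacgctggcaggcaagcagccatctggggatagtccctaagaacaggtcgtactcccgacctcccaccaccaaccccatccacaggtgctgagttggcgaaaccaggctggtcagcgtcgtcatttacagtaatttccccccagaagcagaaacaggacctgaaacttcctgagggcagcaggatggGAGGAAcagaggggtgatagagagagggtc
C1qc (chr4:136893066-136893164, minus strand, 99 bases): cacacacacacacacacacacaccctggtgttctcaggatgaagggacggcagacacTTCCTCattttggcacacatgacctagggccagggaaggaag
Chil3 (chr3:106167565-106167814, minus strand, 250 bases): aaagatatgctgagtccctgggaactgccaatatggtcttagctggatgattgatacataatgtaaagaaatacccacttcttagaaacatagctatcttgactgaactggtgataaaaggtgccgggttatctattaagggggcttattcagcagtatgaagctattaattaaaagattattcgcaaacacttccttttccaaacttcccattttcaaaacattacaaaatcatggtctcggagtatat
Plbd1 (chr6:136661929-136662143, minus strand, 215 bases): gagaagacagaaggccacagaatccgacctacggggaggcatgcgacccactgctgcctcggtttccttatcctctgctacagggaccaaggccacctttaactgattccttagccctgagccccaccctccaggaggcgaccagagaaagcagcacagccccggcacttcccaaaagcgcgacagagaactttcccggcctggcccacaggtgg
Lyz2 (chr10:117282322-117282522, minus strand, 201 bases): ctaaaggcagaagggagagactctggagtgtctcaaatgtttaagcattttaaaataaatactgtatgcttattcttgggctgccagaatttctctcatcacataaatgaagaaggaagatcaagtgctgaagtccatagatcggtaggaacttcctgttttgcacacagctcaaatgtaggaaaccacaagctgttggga
Lyz1 (chr10:117292869-117293118, minus strand, 250 bases): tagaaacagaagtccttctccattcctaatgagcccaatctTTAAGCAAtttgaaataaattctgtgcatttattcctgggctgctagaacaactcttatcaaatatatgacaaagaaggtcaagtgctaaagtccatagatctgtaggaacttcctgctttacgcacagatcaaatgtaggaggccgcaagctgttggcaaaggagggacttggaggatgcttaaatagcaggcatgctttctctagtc
The PU.1 core occurred once each in the windows of C1qb, C1qc and Cd68, and in 23.3% of all 32851 RefSeq promoters over 250 bases. Over the 99 of these bases furthest from the RefSeq start, the part kept for C1qc, the share was 9.91%. Cd68, the lysosomal glycoprotein, held all 3 kinds of match, with 1 C/EBP match and 2 AP-1 matches, which 9.56% and 6.75% of all promoters of 250 bases held at least once. No match was found in the windows of Chil3, Lyz2 and Plbd1, which says only that these letters are not in them. Lyz2 and Lyz1 could be aligned over 166 positions, of which 137 (82.5%) were identical. The matches overlapped no other motif in these windows and are a description of the sequence.

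All 10 members had their highest value in CA-RIT NFAT1 10, in CPM and in deposited TPM (transcripts-per-million, which also divide by transcript length). Summed over the members, the level there was 4246 CPM, against 207, 82.7 and 199 CPM in CA-RIT NFAT1 2, 4 and 9, 127, 64.3 and 175 CPM in NFAT5 1, 5 and 8, and 206 and 113 CPM in eGFP control 3 and 6. The 8 other deep libraries thus lay within a range that the groups shared, and CA-RIT NFAT1 10 stood far above it. eGFP control 7 had a single read on the whole list, on Lyz2. In bulk RNA of this kind, more cells of a type and more RNA per cell cannot be told apart.

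**Figure D1:**
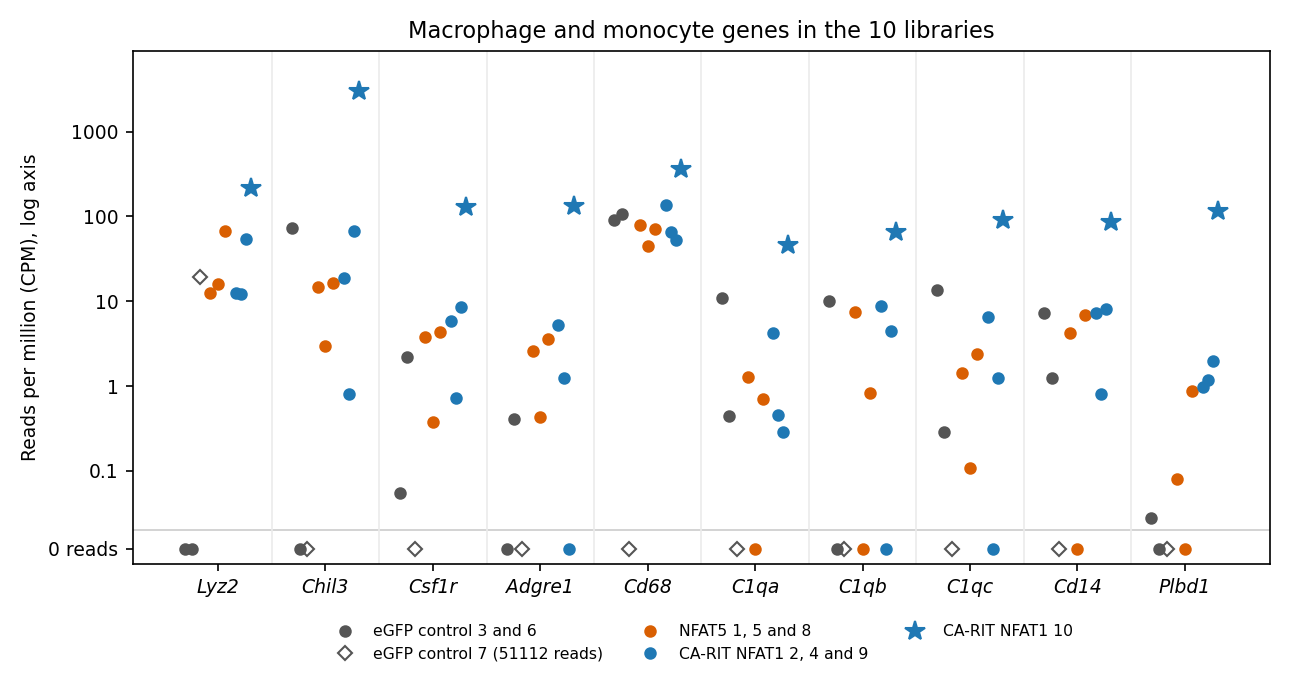
Level of each of the 10 genes in each library, in CPM on a log axis, with libraries of 0 reads drawn on the lowest line. Each point is 1 library, coloured by group, and the star, CA-RIT NFAT1 10, is the highest point of every gene, from 46.5 CPM for C1qa to 2997 CPM for Chil3.

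Chil3 encodes Ym1, a secreted chitinase-like protein made by alternatively activated macrophages (chromosome 3, 106147554 to 106167564, GRCm38). Its level was 73.9, 0 and 0 CPM in eGFP control 3, 6 and 7, 14.9, 2.98 and 16.5 CPM in NFAT5 1, 5 and 8, and 18.5, 0.795, 67.1 and 2997 CPM in CA-RIT NFAT1 2, 4, 9 and 10. The groups overlapped over 8 libraries, with eGFP control 3 and CA-RIT NFAT1 9 the highest. In CA-RIT NFAT1 10, 97384 reads fell on Chil3 (95% Poisson interval 2979 to 3016 CPM, which covers counting error only, as do all intervals here), making it the gene of rank 11 among all genes of that library. That level was 40.6 times the highest of the 8 libraries. Of the 1629 distinct 31-base words in Chil3 transcripts, 676 (41.5%) also occur in other genes, chiefly Chil4 and Gm6522, so a share of its reads could in principle be assigned either way. Chil4 itself was at 0.0616 CPM in CA-RIT NFAT1 10 and at 0 in the others.

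Lyz2 encodes lysozyme M, the bacteria-digesting enzyme whose gene drives Cre in the common myeloid mouse lines (chromosome 10, 117277331 to 117282321). It had 0 reads in eGFP control 3 and 6 and 1 read, equal to 19.6 CPM, in eGFP control 7. It stood at 12.6, 15.9 and 67.4 CPM in NFAT5 1, 5 and 8, and at 12.4, 12.2, 53.7 and 216 CPM in CA-RIT NFAT1 2, 4, 9 and 10. Lyz2 was the 1 member with 0 reads in both deep controls and reads in every NFAT5 and CA-RIT NFAT1 library. In eGFP control 3 and 6, 3 reads would equal 0.0821 and 0.121 CPM, and the 95% Poisson upper limits of the 0 are 0.101 and 0.149 CPM. CA-RIT NFAT1 10 was only 3.21 times above the highest of the 8 libraries for Lyz2, against 40.6 times for Chil3. Lyz1 shares 422 of the 1286 words of Lyz2 (32.8%) and had 0 reads in every library.

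C1qa, C1qb and C1qc encode the 3 chains of C1q, the recognition part of the classical complement pathway, and lie side by side on chromosome 4 (136895917 to 136898803, 136880129 to 136886187 and 136889804 to 136893065). C1qa stood at 11.0, 0.445 and 0 CPM in eGFP control 3, 6 and 7, 1.29, 0 and 0.699 CPM in NFAT5 1, 5 and 8, and 4.28, 0.449, 0.284 and 46.5 CPM in CA-RIT NFAT1 2, 4, 9 and 10. C1qb stood at 10.1, 0 and 0 CPM, 7.46, 0 and 0.831 CPM, and 8.85, 0, 4.43 and 66.4 CPM in the same order. C1qc stood at 13.5, 0.283 and 0 CPM, 1.41, 0.107 and 2.40 CPM, and 6.53, 0, 1.24 and 91.0 CPM. Besides CA-RIT NFAT1 10, eGFP control 3 held the highest value of all 3 chains, CA-RIT NFAT1 2 the next highest, and NFAT5 5 was at or near 0 for all 3. CA-RIT NFAT1 10 exceeded the highest of the 8 by 4.25 times for C1qa, 6.56 times for C1qb and 6.74 times for C1qc. No word of 31 bases in the 3 genes occurred in another gene.

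Csf1r encodes the receptor for the growth factors CSF1 and IL-34, on which most macrophages depend (chromosome 18, 61100598 to 61132149). Its level was 0.0548, 2.23 and 0 CPM in eGFP control 3, 6 and 7, 3.83, 0.373 and 4.28 CPM in NFAT5 1, 5 and 8, and 5.86, 0.726, 8.58 and 130 CPM in CA-RIT NFAT1 2, 4, 9 and 10. The groups overlapped over 8 libraries, and CA-RIT NFAT1 10 was 15.2 times above the highest of them. The reads of the 8 libraries did not spread over the gene's transcripts in the way of CA-RIT NFAT1 10. There, 3286 of 4226 reads (77.8%, 95% Wilson interval 76.5% to 79.0%) were assigned to Csf1r-201 and 879 (20.8%, 19.6% to 22.0%) to Csf1r-202, which share their coding length of 2931 bases and differ in the ends. In the 8 others, Csf1r-202 took every read in eGFP control 3 and 6, NFAT5 1 and 5 and CA-RIT NFAT1 4, and 81.6% to 95.5% in NFAT5 8 and CA-RIT NFAT1 2 and 9. Csf1r-201 received reads in only 1 of the 8, 10 of 174 in CA-RIT NFAT1 2 (5.75%, 3.15% to 10.3%).

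Csf1r-202 is the only transcript of the gene with exon bases, 873 of them, inside the antisense gene Hmgxb3, and 843 of its 4671 words of 31 bases also occur in Hmgxb3 transcripts, against none for Csf1r-201. Hmgxb3, a gene of an HMG-box protein, was at 24.8 CPM in eGFP control 6 and 0.110 CPM in eGFP control 3. It was at 15.4 to 46.5 CPM in the NFAT5 libraries and 30.4 to 39.0 CPM in CA-RIT NFAT1 2, 4 and 9. Its level in CA-RIT NFAT1 10, where Csf1r was highest, is not given here. Over all libraries, that one included, its edgeR log2 fold change with CA-RIT NFAT1 was 0.90 ± 1.10 against NFAT5 and 2.10 ± 1.33 against eGFP. The strand of the libraries is not given in the sources used here, so reads from the overlap cannot be told apart by strand. The part of Hmgxb3 reads in the low Csf1r values of the 8 libraries was not tested.

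**Figure D2:**
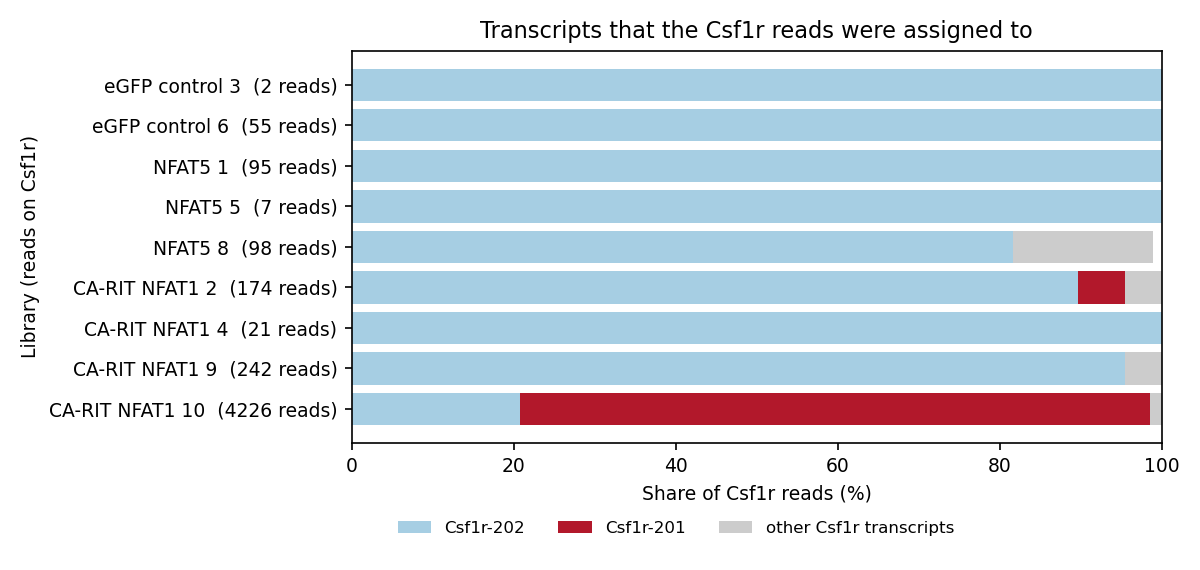
Share of the Csf1r reads of each library assigned to transcript Csf1r-201, to Csf1r-202 and to the other Csf1r transcripts, with the reads on the gene in brackets (each transcript's reads were rounded, so a bar can stop short of 100%). Csf1r-201 takes 77.8% in CA-RIT NFAT1 10 and 5.75% in CA-RIT NFAT1 2, and Csf1r-202 takes the most in all 8 other libraries.

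Adgre1 encodes F4/80, the adhesion receptor used to stain mouse macrophages (chromosome 17, 57358691 to 57483527). It stood at 0, 0.405 and 0 CPM in eGFP control 3, 6 and 7, 2.62, 0.426 and 3.63 CPM in NFAT5 1, 5 and 8, and 5.29, 1.24, 0 and 132 CPM in CA-RIT NFAT1 2, 4, 9 and 10. NFAT5 5 and eGFP control 6 were almost level, with 8 and 10 reads. Among its relatives, Adgre4 had 0 reads in all libraries, and Adgre5, which T cells also make, was at 234 CPM or more in the 8 libraries and 52.9 CPM in CA-RIT NFAT1 10.

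Cd14 encodes the co-receptor that hands bacterial lipopolysaccharide to Toll-like receptor 4 (chromosome 18, 36725067 to 36726798). It stood at 7.17, 1.25 and 0 CPM in eGFP control 3, 6 and 7, 4.19, 0 and 6.95 CPM in NFAT5 1, 5 and 8, and 7.34, 0.795, 8.16 and 87.0 CPM in CA-RIT NFAT1 2, 4, 9 and 10. Each group held at least 1 library above 6 CPM and 1 below 2 CPM, so the groups overlapped throughout.

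Cd68 and Plbd1 both encode proteins of the lysosome, the first a heavily glycosylated membrane protein of phagocytes (chromosome 11, 69664213 to 69666153) and the second a phospholipase B-like enzyme (chromosome 6, 136612070 to 136661928). Cd68 stood at 90.0, 108 and 0 CPM in eGFP control 3, 6 and 7, 78.9, 44.5 and 71.4 CPM in NFAT5 1, 5 and 8, and 137, 65.3, 53.3 and 362 CPM in CA-RIT NFAT1 2, 4, 9 and 10. Plbd1 stood at 0.0274, 0 and 0 CPM, 0.0806, 0 and 0.874 CPM, and 0.976, 1.17, 1.99 and 117 CPM in the same order. They mark the ends of the list: Cd68 was present in every deep library and in CA-RIT NFAT1 10 was 2.64 times the highest of the 8, while Plbd1 was near 0 in all 8 and 58.9 times their highest there.

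The make-up of the signal differed between CA-RIT NFAT1 10 and the 8 other deep libraries. By TPM, which allows levels of genes of unlike length to be compared, Cd68 was the first member in all 8 libraries, with 36.1% to 97.4% of the members' summed TPM. In CA-RIT NFAT1 10 Chil3 took 65.8% and Cd68 13.2%, followed by Lyz2 at 5.40%, C1qc at 3.18% and C1qb at 2.80%. Without Cd68 the members summed to 116 and 4.61 CPM in eGFP control 3 and 6, 48.3, 19.8 and 104 CPM in NFAT5 1, 5 and 8, and 70.1, 17.4, 146 and 3884 CPM in CA-RIT NFAT1 2, 4, 9 and 10. eGFP control 6, NFAT5 5 and CA-RIT NFAT1 4 were then the 3 lowest deep libraries, 1 from each group.

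**Figure D3:**
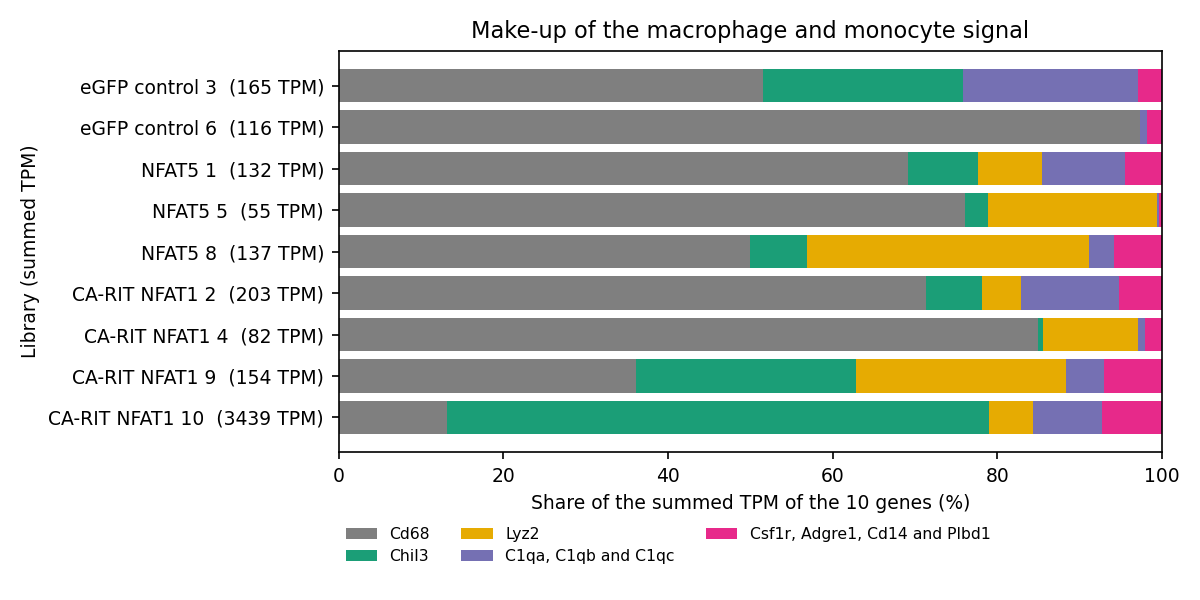
Share of the summed TPM of the 10 genes taken by Cd68, Chil3, Lyz2, the 3 C1q chains and the other 4 genes in each deep library, with the summed TPM in brackets. Cd68 is the longest bar in 8 libraries and Chil3, at 65.8%, in CA-RIT NFAT1 10.

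The level of each member in the 8 libraries was also expressed as a percent of its level in CA-RIT NFAT1 10, and the percentages spread widely within each library. In NFAT5 8 the level of Lyz2 was 31.2% of that in CA-RIT NFAT1 10 and the level of Chil3 0.550%. In eGFP control 3, Cd68 was at 24.9%, C1qa at 23.6%, C1qb at 15.3% and C1qc at 14.8%, beside 2.46% for Chil3 and 0 reads for Lyz2 and Adgre1. The median over the 10 members was 5.36% and 0.309% in eGFP control 3 and 6, 2.86%, 0.108% and 2.69% in NFAT5 1, 5 and 8, and 6.45%, 0.927% and 4.42% in CA-RIT NFAT1 2, 4 and 9. Each group again held low and high libraries.

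**Figure D4:**
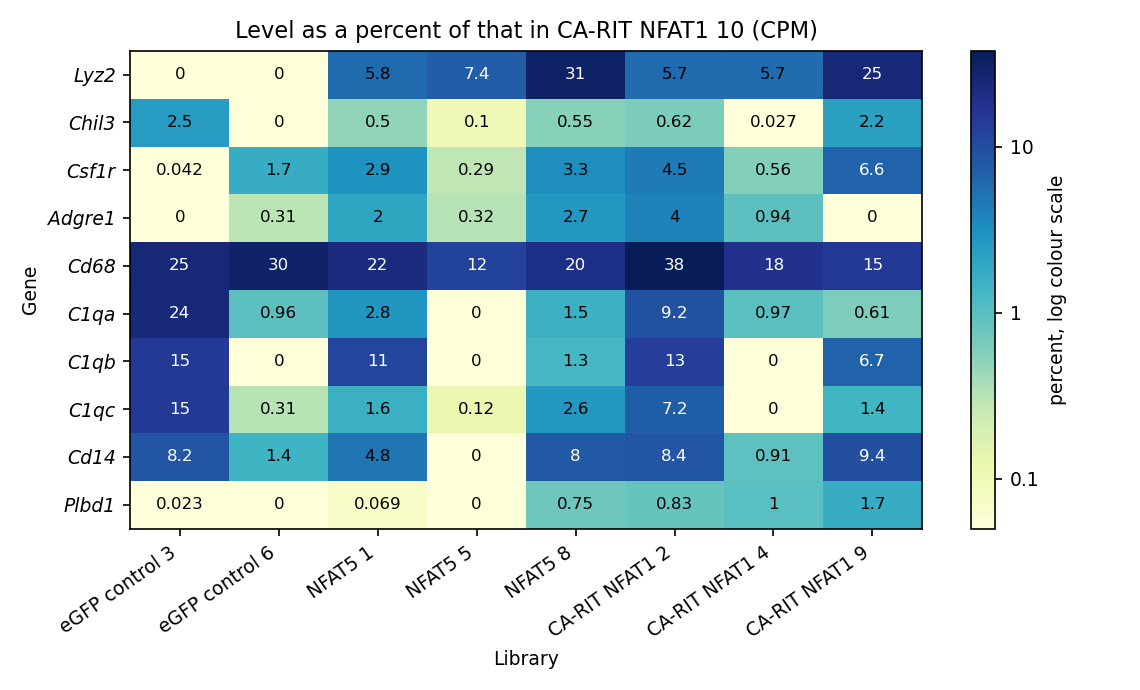
Level of each gene in 8 libraries as a percent of its level in CA-RIT NFAT1 10, from CPM, with a log colour scale and the value printed in each cell. Cd68 lies between 12.3% and 37.9% in all 8, Plbd1 never passes 1.70%, and Lyz2 is 0 in both eGFP control libraries.

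NFAT5 was first compared with the eGFP control. All 10 members passed the low-count filter, over 10 and over 8 libraries. Over the 8, Lyz2 and Plbd1 did so without any eGFP control library at its level of 10 reads in a library of median depth. That was 0.377 CPM, and eGFP control 7, outside the 8, had Lyz2 at 19.6 CPM from its 1 read. Lyz2 reached the filter's level in all 6 NFAT5 and CA-RIT NFAT1 libraries of the 8, and Plbd1 in 1 NFAT5 and 3 CA-RIT NFAT1 libraries, so these genes were tested through the libraries where they were high. Chil3, Csf1r, Adgre1, C1qb and C1qc each had 1 eGFP control library at that level. The filter needed 2 libraries, so the controls alone could not have passed these genes. The edgeR quasi-likelihood test with Benjamini-Hochberg adjustment called 0 of the 10 at an adjusted p of 0.05, where it called 0% of 13783 genes over 10 libraries and 0% of 14473 over 8. At an unadjusted p under 0.05, Lyz2 alone passed among the members, beside 374 of all genes over 10 libraries and 1051 over 8. Over 8 libraries the mean of Lyz2 with NFAT5 was 32.0 ± 30.7 CPM (SD, n = 3), at least 653-fold higher than 3 reads over the pooled controls, or at least 263-fold higher without eGFP control 3 and 389-fold higher without eGFP control 6. Its log2 fold change from edgeR was 12.73 ± 2.01 (SE), a fitted value that is no bound because the controls are at 0, with an adjusted p of 0.654. DESeq2 over the same 8 libraries called Lyz2 at an adjusted p of 1.13e-08 and no other member, where it called 0.923% of 14513 genes. Over 10 libraries, which add eGFP control 7 with its 1 read and CA-RIT NFAT1 10, neither test called Lyz2, and edgeR did not over the 8 either. Over the 8 libraries without eGFP control 6, which leaves eGFP control 3 as the lone control, edgeR called Lyz2 among 3294 of all genes.

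The fold changes of the other members had both signs between NFAT5 and eGFP, and none passed the edgeR test. Over 8 libraries the log2 fold change from edgeR was -0.72 ± 0.40 for Cd68 and -3.27 ± 1.87 for C1qa, with adjusted p values of 0.659 and 0.661. The median over the 10 members was -0.53, against 0.08 for all genes. The libraries of the groups did not overlap for 3 members, Lyz2 and Adgre1 higher and Cd68 lower with NFAT5, where 22.3% of all genes did not overlap. Lyz2 and Adgre1 had 0 and 1 eGFP control libraries at the level of the low-count filter, which needed 2. Over 8 libraries the signs of Chil3, C1qa, C1qb and C1qc turned when eGFP control 3 was left out, that of C1qc from -2.56 to 2.16. The sign of Cd14, at -0.34, turned without eGFP control 3 (1.54) and also without NFAT5 5 (0.27).

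CA-RIT NFAT1 was compared with the same eGFP control libraries. Over 10 libraries edgeR called 0 of the 10 members and 0% of 13783 genes, and over 8 libraries 0 of the 10 and 0% of 14473 genes. At an unadjusted p under 0.05 stood 609 of all genes over 10 libraries, where nothing is read from the members because CA-RIT NFAT1 10 was used to choose them. Over 8 libraries 932 genes passed, Lyz2 and Plbd1 among them. Over those 8, both had passed the low-count filter only through the NFAT5 and CA-RIT NFAT1 libraries where they were high. This limits what their tests can show. A like limit holds for Chil3, Csf1r, Adgre1, C1qb and C1qc, with 1 eGFP control library at the filter's level. The mean of Lyz2 over CA-RIT NFAT1 2, 4 and 9 was 26.1 ± 23.9 CPM (SD, n = 3), at least 533-fold higher than 3 reads over eGFP control 3 and 6, or at least 215-fold higher without eGFP control 3 and 318-fold higher without eGFP control 6. Without eGFP control 6, edgeR called Lyz2 among 3410 of all genes. Over the 8 libraries the edgeR log2 fold change of Lyz2 was 12.42 ± 2.00 with an adjusted p of 0.679, and DESeq2 called it at 4.17e-08, where DESeq2 called 0.716% of 14936 genes. Plbd1, with 1 read in the controls, had an edgeR log2 fold change of 6.01 ± 2.34 and an adjusted p of 0.679. Lyz2 and Plbd1 were the 2 members whose libraries did not overlap over 8, where 20.9% of all genes did not.

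The size of this comparison differed between the 10 and the 8 libraries, and its values over 10 are given as a description only. Over 10 libraries the median log2 fold change of the members was 3.18, against 0.19 for all genes. Without CA-RIT NFAT1 10 and eGFP control 7, left out together, the median was -0.08, against 0.10, so these medians do not part the share of either library. Chil3 changed from 4.06 ± 2.72 to -0.54 ± 2.00, C1qa from 0.85 ± 2.00 to -1.99 ± 1.81 and Cd68 from 0.53 ± 0.65 to -0.35 ± 0.41. The smallest adjusted p of a member from edgeR was 0.943 over 10 libraries and 0.679 over 8.

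Last, CA-RIT NFAT1 and NFAT5 were compared with each other. edgeR called 0 of the 10 members over 10 libraries, where it called 0% of 13783 genes, and 0 of the 10 over 8, where it called 0% of 14473. At an unadjusted p under 0.05 stood 181 of all genes over 10 libraries, where again nothing is read from the members, and 163 over 8, none of them a member. DESeq2 over 8 libraries called none of the members and 0.0184% of 21694 genes. For Lyz2 the edgeR log2 fold change over 8 libraries was -0.31 ± 0.85 (adjusted p = 1.00), so an unequal level of Lyz2 in the 2 groups was not detected at this spread. Plbd1, at 2.07 ± 1.59, was the 1 member whose libraries did not overlap, where 6.83% of all genes did not. The member median was 0.74 over 8 libraries and 3.63 over 10, against 0.00 and -0.02 for all genes.

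The genes around the members were read from lists of related genes, chosen by name and not by how they moved. In the list of the CSF1 receptor axis (13 genes, 12 tested over 8 libraries), edgeR called 0 in any of the 3 comparisons, with at most 1 at an unadjusted p under 0.05, and DESeq2 called 0. In CA-RIT NFAT1 10 this list was led by Csf2rb, the shared beta chain of the GM-CSF receptor, at 535 CPM against at most 13.4 CPM in the 8 libraries, and by Cebpb at 408 CPM against at most 63.0. Spi1, the gene of PU.1, was at 61.0 CPM, with 35.8 CPM in eGFP control 3 and 0.213 to 5.86 CPM in the other 7. Irf8, a factor of monocytes and dendritic cells that T cells also express, went the other way, at 0.739 CPM in CA-RIT NFAT1 10 against 92.7 to 337 CPM, and was picked out after its values were seen.

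For Cd14, the list of the Toll-like receptor 4 pathway (13 genes, 11 tested) had 0 genes called by edgeR and 0 by DESeq2 in each comparison over 8 libraries, with 0 at an unadjusted p under 0.05 from edgeR. Its own receptor gene, Tlr4, was at 2.25 CPM in CA-RIT NFAT1 10, while Tlr2, which encodes a receptor for bacterial lipoproteins, reached 89.6 CPM there and at most 7.90 CPM in the 8. Myd88 and Irak1, adaptor and kinase of most Toll-like receptors, did not follow Cd14, at 105 to 154 CPM and 67.2 to 127 CPM in the 8 libraries and 121 and 102 CPM in CA-RIT NFAT1 10.

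For the C1q chains, the list of the classical pathway and its receptors (14 genes, 10 tested) had 0 called by edgeR in each comparison over 8 libraries, with at most 2 at an unadjusted p under 0.05, and DESeq2 called C3 in NFAT5 against eGFP (adjusted p = 0.033). The proteases that act with C1q were nearly absent: C1s1 had 0 reads in all libraries and C1ra at most 0.850 CPM. C3, the central component of complement, was at 134 CPM in CA-RIT NFAT1 10, and at 0 in eGFP control 3 and 6, 0 to 9.35 CPM with NFAT5 and 0.0345 to 4.89 CPM in CA-RIT NFAT1 2, 4 and 9.

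For Cd68 and Plbd1, all 18 lysosomal genes were tested over 8 libraries and 0 were called by edgeR or by DESeq2 in each comparison, with at most 3 at an unadjusted p under 0.05 from edgeR. Ctsd, the aspartic protease of the lysosome, was at 1469 to 2625 CPM in the 8 libraries and 1897 CPM in CA-RIT NFAT1 10, while Grn (1207 CPM, at most 226 in the 8) and Ctsz (829 CPM, at most 187) were higher there. Plbd2, the relative of Plbd1, was at 15.6 to 46.0 CPM in the 8 libraries, where Plbd1 was near 0. Among the 12 genes of the members' own families, 7 were tested over 8 libraries and edgeR called 0 in each comparison, with at most 2, members themselves, at an unadjusted p under 0.05. The only call of DESeq2 among the 12 was Lyz2 itself, against eGFP (1.13e-08 with NFAT5 and 4.17e-08 with CA-RIT NFAT1).

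Of the 22 other macrophage genes 17 were tested over 8 libraries and edgeR called 0 in each comparison, with at most 1 at an unadjusted p under 0.05. DESeq2 called Fcgr1 and Cd163, both at 0 reads in eGFP control 3 and 6, against eGFP, with adjusted p values of 0.0227 and 4.30e-07 for NFAT5 and 0.0167 and 3.67e-07 for CA-RIT NFAT1. Cd163 was also at 0 reads in CA-RIT NFAT1 4 and 9, so its value in that group over 8 libraries came from CA-RIT NFAT1 2 alone. Arg1, an enzyme of alternatively activated macrophages, was at 1069 CPM in CA-RIT NFAT1 10, Fcer1g at 701 CPM, Fcgr3 at 303 CPM and Mrc1, the mannose receptor, at 281 CPM. Fcgr1, an Fc receptor gene, was at 0.323 to 2.27 CPM in the 6 other libraries. Several tissue macrophage genes were absent where the members were highest, with Mertk, Trem2, Gpnmb, Vsig4, Marco and Timd4 at 0 reads in CA-RIT NFAT1 10. Most were absent elsewhere too. Vsig4 had 0 reads in every library, Marco in all but CA-RIT NFAT1 9 and Mertk in all but CA-RIT NFAT1 2. Trem2 had reads only in NFAT5 1 and CA-RIT NFAT1 2, and Timd4 only in eGFP control 3 and CA-RIT NFAT1 4. Gpnmb had reads in every other deep library except NFAT5 8. Of the 16 other monocyte genes 14 were tested over 8 libraries and edgeR called 0 in each comparison, with at most 4 at an unadjusted p under 0.05. DESeq2 called Clec4e, a lectin receptor of myeloid cells also at 0 reads in both controls, against eGFP (0.034 with NFAT5 and 0.0291 with CA-RIT NFAT1). Emilin2, at 795 CPM, and Fn1, the gene of fibronectin, at 508 CPM, led in CA-RIT NFAT1 10, while Ly6c2, which activated CD8 T cells also express, was at 7.51 CPM there and at 355 to 1334 CPM in the 8.

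The marker lists of other cells were set beside the members, and not all were high with them. In CA-RIT NFAT1 10 the 13 neutrophil markers summed to 34.3 CPM, with 10 of 13 at 0 reads, against 0.809 to 5.28 CPM in the 8 libraries. The 12 dendritic cell markers summed to 293 CPM in CA-RIT NFAT1 10, within the 212 to 621 CPM of the 8. However, 9 of these 12 were at 0 reads in it, against 2 to 5 in each of the 8, and only Ccr7, Itgae and Bst2 had reads. The 7 genes of class II antigen presentation summed to 5398 CPM in CA-RIT NFAT1 10, 1443 CPM in eGFP control 3 and 140 to 238 CPM in the other 7. eGFP control 3, where the C1q chains and Chil3 were high among the 8 libraries, thus also led them in class II genes and in Spi1, while Lyz2 and Adgre1 were at 0 reads in it. Over 8 libraries DESeq2 called H2-Aa, H2-Ab1 and H2-Eb1 lower with CA-RIT NFAT1 than with eGFP (adjusted p = 0.0188, 0.0169 and 0.0135). It also called H2-Aa lower with NFAT5 than with eGFP (0.0359). edgeR called 0 of the 7, with 4 and 6 at an unadjusted p under 0.05 in these 2 comparisons. The 9 eosinophil and basophil markers summed to 115 CPM in CA-RIT NFAT1 10 and at most 24.4 CPM in the 8, and the 8 stroma and endothelium markers to 166 CPM and at most 62.9 CPM. Of the 9, only Mcpt8 and Cd200r3 had reads in CA-RIT NFAT1 10, with 7 at 0 reads, as many as in eGFP control 3. The 7 B and NK cell markers were at 0 reads in CA-RIT NFAT1 10. The part of these other cells in the member levels was not tested.

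**Figure D5:**
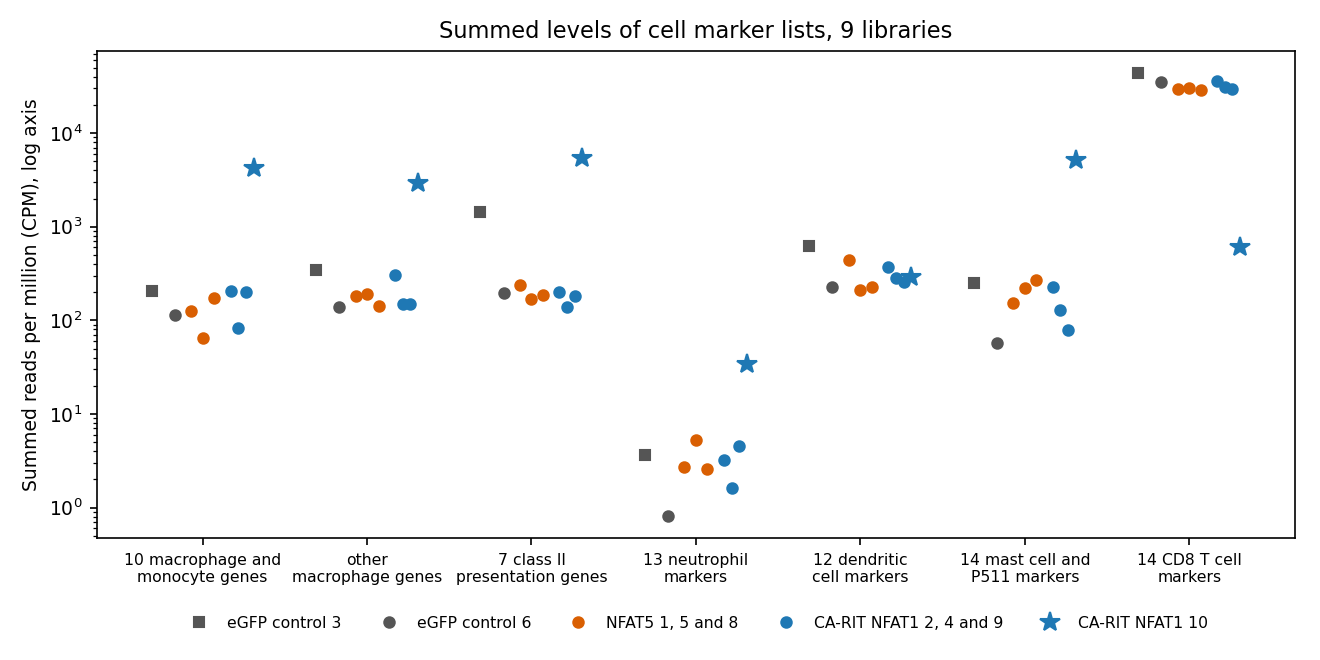
Summed level of 7 marker lists in 9 libraries, in CPM on a log axis, each point 1 library. CA-RIT NFAT1 10 (star) has 609 CPM of CD8 T cell markers and 5130 CPM of mast cell and P511 markers, and eGFP control 3 (square) has 1443 CPM of class II genes.

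The genes whose pattern was most like the summed members were sought among genes averaging 5 CPM or more, by Pearson correlation of log2(CPM + 1), as a description. Over 9 libraries (9606 genes) these were Clec4a3 at 0.99, Cul7 at 0.99, Naxd at 0.98, Bid at 0.98 and Ergic1 at 0.98, all 5 highest in CA-RIT NFAT1 10. Clec4a3, a C-type lectin receptor of myeloid cells, was at 44.6 CPM in it and at most 1.59 CPM in the 8. Over the 8 libraries (9295 genes) they were Zfand1 at 0.94, Arg1 at 0.92, Naxd at 0.92, Rnf181 at 0.92 and Wdr46 at 0.91, libraries that differ in depth as well. This likeness did not always extend to CA-RIT NFAT1 10. Zfand1 was at 0 CPM in it, against 6.94 to 19.1 CPM in the 8, and Rnf181 at 80.2 CPM, within its 67.3 to 102 CPM. Arg1, Naxd and Wdr46 were above their range in the 8 there. For the 3 members above that mean, the correlation with the sum over 8 libraries was 0.79 for Chil3, 0.50 for Cd68 and 0.04 for Lyz2.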

How the data were processed

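RNA of sorted CD8 T cells was sequenced in 10 libraries of 3 groups. Salmon 0.14.1 quantified the transcripts and mm10 and GRCm38.p6 are the builds named, per the submitters' processing notes. Library strand is not given in the sources used here. The deposited estimated counts are Salmon's reads per transcript, and the deposited TPM are scaled by length and library, per the file headers. GENCODE M21 held 139966 of the 140919 transcripts, and the 953 others, at most 0.292% of a library's reads, were left out. Estimated counts were summed per gene and rounded. CPM used all matched reads without a TMM factor.

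The test across all genes was that of edgeR 4.0.16 under R 4.3.3 (quasi-likelihood, TMM, filterByExpr, 1 spread over 3 groups, Benjamini-Hochberg at 0.05), and standard errors are those implied by each fold change and its test. DESeq2 1.42.0, RLE scaling, no filter, only the groups compared, 8 libraries and each library left out were alternatives; those within the 8 libraries were added after the data were seen. The edgeR script was tested on simulated data. The members, the gene lists and the 8 libraries were chosen with earlier results of these data known. Named were all members, up to 4 genes of each list highest in CA-RIT NFAT1 10, relatives of members and the 5 most similar genes; others were picked after their values were seen, and 1 gene of a list is not reported here. Reads shared between genes were gauged by common words of 31 bases.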

Additional observations from a re-analysis of the deposited data

Results flagged for a closer look

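CA-RIT NFAT1 10 was named when the genes were chosen, so its distance from the other 3 libraries of its group restates that choice and is given as a description, with no test. The values marked by Dixon's 95% critical value for a gap within a group were 2997 CPM for Chil3, 130 CPM for Csf1r, 132 CPM for Adgre1, 46.5 CPM for C1qa, 66.4 CPM for C1qb, 91.0 CPM for C1qc, 87.0 CPM for Cd14 and 117 CPM for Plbd1. The summed member level, 4246 CPM, was marked in the same way, and Lyz2 and Cd68 were not. Chance marks about 5% of groups where samples were not chosen by their values.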

How the results depend on the processing

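No paired analysis was possible because the groups share no replicate numbers. With DESeq2 over 8 libraries, and over those libraries without eGFP replicate 6, the members called against eGFP went from 0 to 1 (Lyz2) for NFAT5 and for CA-RIT NFAT1, and when each library was left out in turn this count ranged from 0 to 1. For all genes, edgeR called 0 in each comparison. With each library left out in turn this ranged from 0 to 506 for NFAT5 and from 0 to 639 for CA-RIT NFAT1 against eGFP over 10 libraries, and from 0 to 3294 and from 0 to 3410 over 8. Each highest count came without eGFP replicate 6, with eGFP control 3 as the lone deep control, assumed to vary like the other groups. DESeq2 called 24, 33 and 3 genes over 10 libraries and 134, 107 and 4 over 8, first for NFAT5 and next for CA-RIT NFAT1, each against eGFP, and last between these. RLE scaling over 10 libraries moved the all-gene median (log2 fold change) from 0.19 to 0.31 and from -0.02 to 0.13 in the comparisons with CA-RIT NFAT1, and reversed no member. Of all values recomputed for single members, 695 kept their direction and side of the threshold, 4 (Lyz2) newly passed it and 50 reversed; the cause of the reversals was not tested. DESeq2 turned Plbd1 in NFAT5 against eGFP to -1.21. The 8 libraries turned CA-RIT NFAT1 against eGFP to -0.54 for Chil3, -0.35 for Cd68, -1.99 for C1qa, -0.41 for C1qb and -1.63 for C1qc, and CA-RIT NFAT1 against NFAT5 to -0.31 for Lyz2 and -0.075 for Adgre1.

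Leaving out each of the 10 libraries in turn, CA-RIT NFAT1 against NFAT5 ranged from -0.31 to 2.17 for Lyz2 and -0.062 to 4.25 for Adgre1. With the same 10 fits, CA-RIT NFAT1 against eGFP ranged from -0.48 to 16.97 for Chil3, -0.26 to 0.80 for Cd68, -1.93 to 4.62 for C1qa, -0.37 to 11.72 for C1qb and -1.57 to 6.20 for C1qc. The 10 values of NFAT5 against eGFP ranged from -2.67 to 11.10 for Chil3, -4.10 to 0.54 for C1qa, -3.69 to 9.02 for C1qb, -3.42 to 2.17 for C1qc and -1.13 to 1.55 for Cd14. Leaving out each of the 8 libraries in turn, CA-RIT NFAT1 against NFAT5 ranged from -1.41 to 0.87 for Lyz2, -0.30 to 1.89 for Chil3, -1.82 to 0.51 for Adgre1, -0.12 to 0.61 for Cd68, -0.83 to 2.16 for C1qa, -0.30 to 3.33 for C1qb, -1.08 to 1.74 for C1qc and -0.062 to 1.38 for Cd14. With the same 8 fits, CA-RIT NFAT1 against eGFP ranged from -2.16 to 12.51 for Chil3, -4.09 to 1.81 for C1qa, -1.40 to 9.77 for C1qb, -3.62 to 3.08 for C1qc and -0.59 to 2.05 for Cd14. The 8 values of NFAT5 against eGFP ranged from -2.86 to 11.19 for Chil3, -4.20 to 0.53 for C1qa, -3.71 to 9.12 for C1qb, -3.53 to 2.16 for C1qc and -1.19 to 1.54 for Cd14. These log2 ranges cover every member that reversed when 1 library was left out. In the 9 deep libraries 3 reads are 0.160 CPM or less, while in eGFP control 7 a member below 58.7 CPM cannot be told from 0.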
